A study of Mus musculus with 10 samples.

Results

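Cells make ribosomes in the nucleolus, where RNA polymerase I transcribes the ribosomal RNA precursor and a large set of assembly factors cuts, modifies and folds it together with ribosomal proteins. The transcription factor Myc binds DNA as a dimer with Max and is known for driving many of the genes for these factors. In the small intestine, ribosome production is high in the dividing cells of the crypts and lower in the differentiated cells of the villi. The genes described here are 37 listed ribosome biogenesis and nucleolar genes. They span the roles of the process, from Myc and RNA polymerase I to the particles that modify the RNA and the factors that build each subunit. A gene counted as measured where a probe set carried its symbol alone, and of several such probe sets the one brightest on average was used. Of the 37 genes 35 were measured in this way, of 22180 genes in all. Fbl and Tsr1 were named only by probe sets that also name another gene and were not analysed here.

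Total RNA from 10 jejunum samples of female mice aged 10 to 12 weeks was measured on Affymetrix whole-transcript arrays, 1 array per sample. The 5 knockouts, numbered 1 to 5, had the genotype Pcyt1aLoxP/LoxP;VilCreERT2, and the 5 controls, numbered 6 to 10, the genotype Pcyt1aLoxP/LoxP. Both groups thus carried the floxed Pcyt1a alleles, and both received tamoxifen for 5 days, a high fat diet for 4 days and an overnight fast before a 3 cm piece was taken from the middle of the small intestine. The series asks what follows in the jejunum when the epithelium loses Pcyt1a, the rate-limiting enzyme of phosphatidylcholine synthesis by the CDP-choline route. Cre recombinase was driven by the promoter of the epithelial gene villin, whereas the frozen piece held every layer of the gut wall. A level from such a piece does not separate fewer cells of a type from less RNA per cell. The labels do not state that each sample is a mouse of its own, and p-values therefore reflect spread among these samples only, which may be technical. The source labels of the controls also speak of intestine lacking phosphatidylcholine synthesis, against their titles and genotypes, and the series text mentions re-feeding where every sample label gives the fasted state.

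Levels below are log2 intensities, and differences are log2 fold changes, knockout minus control, with standard errors (SE). Pcyt1a lay between 7.14 and 7.80 on the knockout arrays and between 9.18 and 9.55 on the controls, so the groups did not overlap. Its difference was -1.93 (SE 0.13, limma adjusted p = 9.577e-05). The epithelial genes Vil1, Fabp2 and Sis were at 12.19 or above on every array, against array medians over all genes of 5.77 to 5.89. Markers of other cell types differed between arrays of the same group. Paneth cell markers, averaged over 11 genes and centred on the mean of the 10 arrays, were lowest on control 6 (-1.58), knockout 2 (-1.51) and control 8 (-0.88), while the remaining arrays ranged from -0.03 to 1.06. Smooth muscle markers were highest on control 7 (2.58), control 9 (1.41) and knockout 1 (0.76), and the remaining arrays were at -0.37 or lower. Between the groups, endothelial markers were higher in the knockouts by a median of 0.57 over 8 genes, with 5 of 8 at an unadjusted p under 0.05. Fibroblast markers had a median of 0.57 and macrophage markers of 0.38, each with 4 of 8 at that threshold. Smooth muscle markers had a median of -0.63 with 0 of 10, tuft cell markers of -0.42 with 6 of 8, enteroendocrine markers of -0.35 with 5 of 10 and goblet cell markers of -0.26 with 4 of 8. B and plasma cell markers had a median of -0.455 over 8 genes, with 1 higher and 1 lower at that threshold. Crypt stem cell markers had a median of 0.23, with 6 of 15 higher. Over all genes 8.29% were higher and 5.56% lower at an unadjusted p under 0.05. The part of these cell types in the results below was not tested beyond the fits given there.

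Nearly all of the 35 measured ribosome biogenesis genes had higher mean levels in the knockouts, but none passed the test when all 10 arrays were used. By limma, 0 of 35 had an adjusted p under 0.05, against 0.0271% of all genes in either direction and 0.00451% on the higher side, and the smallest adjusted p among them was 0.147. At an unadjusted p under 0.05 there were 32 of 35 on the higher side and 0 on the lower, where all genes gave 8.29% higher and 5.56% lower. The members were chosen with earlier results of these data known, so counts against all genes are no separate support for a difference. The difference was positive for 34 of 35, with a median of 0.52 and a range from -0.01 to 0.75, while the median over all genes was -0.01 and 46.8% of them were positive. The knockout and control values did not overlap for 1 of 35, Noc4l, against 1.64% of all genes with higher knockouts. With lower knockouts there were 0 of 35, against 0.965%. Members share their arrays, and most varied together over them, so these counts are not 35 separate outcomes.

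The array-to-array pattern was shared by almost every member. Knockout 2 was the lowest knockout for 34 of 35 genes, where it was the lowest knockout for 24.7% of all genes. Control 6 was the lowest control for 30 of 35, against 21.8% of all genes. Knockout 1 was the highest knockout for 16 genes and knockout 3 for 18, against 19.3% and 21.7% of all genes. Averaged over the 35 genes after centring each on its mean, the knockouts stood at 0.50, -0.29, 0.53, 0.32 and 0.18 in the order of their numbers, and the controls at -0.63, -0.08, -0.25, -0.10 and -0.18. Knockout 2 thus lay below 4 of the 5 controls, while the other 4 knockouts lay above every control.

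**Figure D1:**
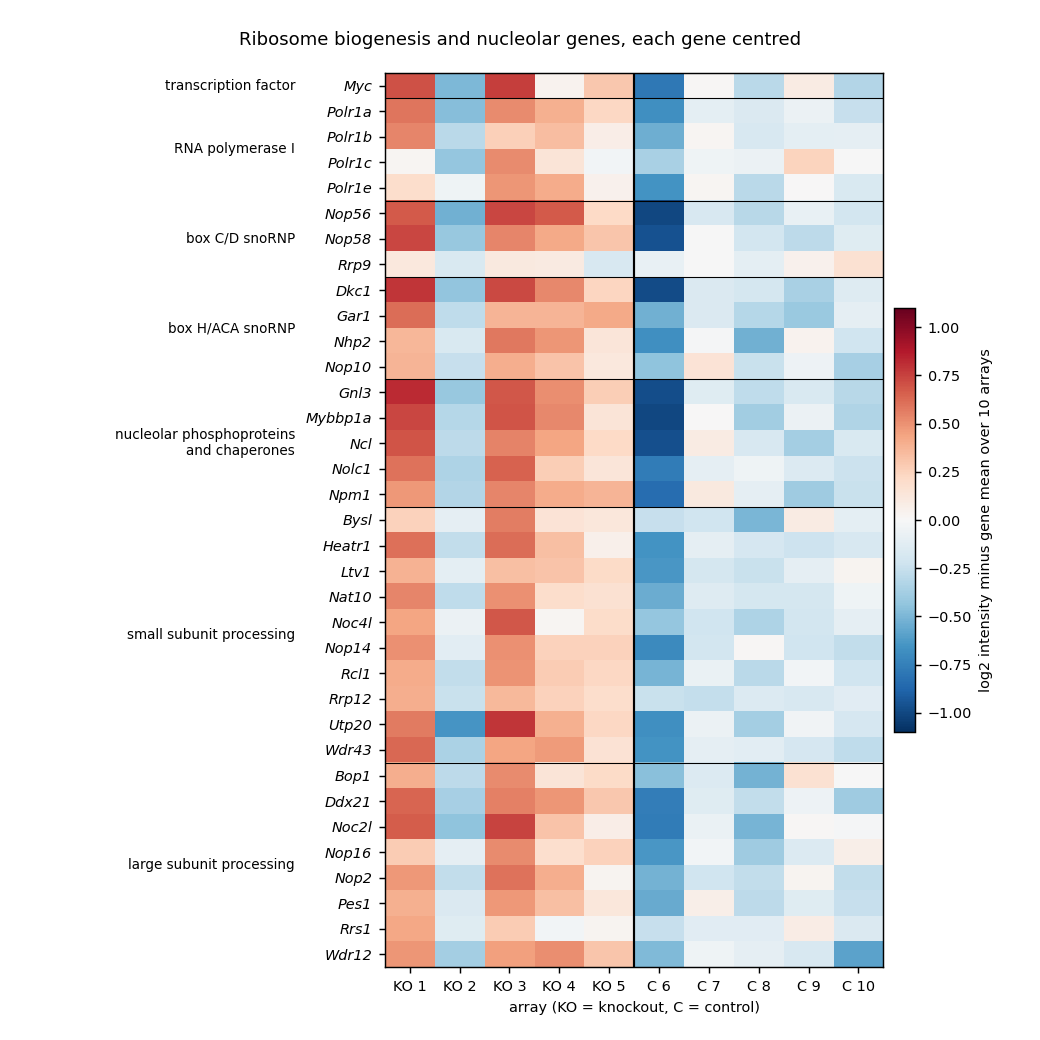
Heat map of the 35 measured genes (rows, grouped by role) on 10 arrays (columns); colour is log2 intensity minus the gene's mean over the 10 arrays. Knockout 2 and control 6 are the low columns of their groups, and Rrp9 and Polr1c have the smallest differences between groups, -0.01 and 0.09.

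Because knockout 2 stood apart from the other knockouts in these same genes, each result was also computed without it. Leaving out their lowest knockout raises the knockout means of these genes. The counts in this fit are therefore no separate support for a difference. On the remaining 9 arrays, 17 of 35 members passed at an adjusted p under 0.05, all of them higher, against 1.78% of all genes on that side and 2.04% in either direction. At an unadjusted p under 0.05 there were 33 of 35 higher, against 9.65%, and 0 lower, against 6.28%. The 17 that passed the adjusted threshold were Polr1a, Nop56, Nop58, Dkc1, Gar1, Npm1, Gnl3, Utp20, Heatr1, Wdr43, Nop14, Rrp12, Rcl1, Nat10, Wdr12, Nop2 and Ddx21. The median difference was then 0.67, and 4 knockouts lay above every control for 28 of 35 members, against 5.67% of all genes. With any other single array left out, 0 of 35 passed, and 24 to 33 were higher at an unadjusted p under 0.05, against 5.97% to 8.33% of all genes in those fits. Without control 6, the lowest control for 30 of 35 members, the median difference was 0.42. In that fit 24 of 35 were higher at that threshold, against 6.65% of all genes.

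Sequences next to the transcription start are shown because the canonical Myc–Max site is a fixed 6-letter word, the E-box CACGTG. RefSeq promoter windows (assembly GRCm38.p6) of 250 bases before to 50 bases after the start were found for 30 of the 35 measured members, 33 windows in all. The E-box was present in 18.2% of the 33 windows, against 7.15% of all 32851 windows in the table and 8.07% of those of genes measured here. The word reads the same on both strands. Its 6 member genes are given with the E-box in capitals and flanks in lower case, 5′ to 3′ on the strand of the gene.
Nop2, chr6:125131811-125131840, plus strand: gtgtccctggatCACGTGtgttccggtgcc
Pes1, chr11:3963965-3963994, plus strand: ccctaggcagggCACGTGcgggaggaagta
Wdr43, chr17:71616220-71616249, plus strand: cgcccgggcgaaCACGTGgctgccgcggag
Ltv1, chr10:13193092-13193121, minus strand: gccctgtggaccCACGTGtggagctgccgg
Utp20, chr10:88826765-88826794, minus strand: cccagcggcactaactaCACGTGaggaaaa
Mybbp1a, chr11:72441347-72441376, plus strand: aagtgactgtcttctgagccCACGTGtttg

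In Nop2 the E-box began 60 bases before the start, and in the other 5 genes it began 3 to 41 bases after it, counting the start as base 1. The ETS-family word CCGGAAG, or its complement CTTCCGG, was found in 30.3% of member windows, against 8.86% of all windows and 11.4% of those of measured genes. Matches are shown for 4 genes, Gar1 and Nhp2 because they have the smallest p-values among the box H/ACA proteins, and Ltv1 and Nop2 because they hold the E-box as well. Capitals mark the word as it reads on the strand of the gene.
Gar1, chr3:129831421-129831450, minus strand: gcgccgccacaCTTCCGGaaacgtcgcgta
Nhp2, chr11:51619739-51619768, plus strand: cacttgaaaacCCGGAAGtgatgtcggagg
Ltv1, upstream match, chr10:13193217-13193246, minus strand: agccccacctcCCGGAAGtccccgggaagg
Ltv1, downstream match, chr10:13193174-13193203, minus strand: ggctcacgcaaCTTCCGGctacagcctagc
Nop2, chr6:125131834-125131863, plus strand: cggtgccgcggCCGGAAGaggcggggcgtt

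A weaker E-box, CACATG or CATGTG, was in 24.2% of member windows and 14.2% of all windows. The palindromes of ZBTB33 and NRF1 were in 0 of 33 member windows, against 0.466% and 0.971% of all windows. All words were searched on both strands, and none contains another. A match or its absence describes the letters in these windows only. Member windows were also rich in CG, with a median of 21 CG dinucleotides against 13 in windows of all measured genes, and CACGTG and CCGGAAG both contain CG. The 6 genes with an E-box had a median difference of 0.51, and the 24 members with a window but no E-box 0.53.

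Myc itself was higher in the knockouts on average and overlapped between the groups. Its knockout arrays read 8.55, 7.36, 8.61, 7.89 and 8.15, and its controls 7.06, 7.86, 7.55, 7.94 and 7.53, each in the order of their numbers. Knockouts 1, 3 and 5 were above every control, knockout 4 lay between the controls and knockout 2 was below all of them but control 6. The difference was 0.52 (SE 0.24, adjusted p = 0.352), a 1.44-fold higher level. Without knockout 2 it was 0.71 with an adjusted p of 0.0940, which did not pass.

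RNA polymerase I makes the precursor of the large ribosomal RNAs, and 4 of its subunits were measured. The largest subunit, Polr1a, read 7.55, 6.49, 7.48, 7.35 and 7.19 on the knockouts and 6.29, 6.85, 6.80, 6.90 and 6.71 on the controls. All knockouts but knockout 2 were above every control, and the difference was 0.50 (SE 0.19, adjusted p = 0.273). Polr1e, a subunit of the enzyme's specific heterodimer, read 5.82, 5.58, 6.11, 6.03 and 5.67 on the knockouts and 4.97, 5.65, 5.33, 5.63 and 5.46 on the controls. Knockout 2 fell just below 2 controls, and the difference was 0.43 (SE 0.15, adjusted p = 0.219). Polr1b, the second catalytic subunit, was at 0.36 (SE 0.16). Polr1c, which RNA polymerase III shares, had the smallest difference of the 4. It read 7.62, 7.17, 8.12, 7.74 and 7.57 on the knockouts and 7.24, 7.55, 7.53, 7.84 and 7.59 on the controls, so only knockout 3 was above every control. Its difference was 0.09, with a 95% interval from -0.26 to 0.45, and it was -0.03 without knockout 3.

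Box C/D particles carry the enzyme that methylates ribose in ribosomal RNA, guided by small nucleolar RNAs. Nop56, one of their scaffold proteins, read 9.27, 8.07, 9.33, 9.27 and 8.82 on the knockouts and 7.60, 8.42, 8.29, 8.52 and 8.40 on the controls. Its partner Nop58 read 9.31, 8.16, 9.11, 8.99 and 8.88 on the knockouts and 7.62, 8.57, 8.37, 8.29 and 8.44 on the controls. For both, all knockouts but knockout 2 were above every control. The differences were 0.71 (SE 0.25, adjusted p = 0.235) for Nop56 and 0.63 (SE 0.22, adjusted p = 0.233) for Nop58, and 0.93 and 0.81 without knockout 2. Rrp9, a protein specific to the U3 particle that guides cleavage of the precursor, was the member with a difference nearest to 0. It read 6.28, 6.00, 6.27, 6.26 and 5.99 on the knockouts and 6.08, 6.16, 6.06, 6.21 and 6.33 on the controls, and the highest value of all was a control. Its difference was -0.01 with a 95% interval from -0.22 to 0.20, which leaves out the median of the 35 members.

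Box H/ACA particles convert uridine to pseudouridine, and all 4 of their core proteins were measured. Gar1 had the smallest p-value of all members, and read 7.66, 6.77, 7.42, 7.42 and 7.46 on the knockouts and 6.52, 6.89, 6.73, 6.64 and 6.95 on the controls. Knockout 2 was below 2 of the controls and the other knockouts above all of them. The difference was 0.60 (SE 0.15, adjusted p = 0.147), and 0.74 (adjusted p = 0.0188) without knockout 2. Nhp2 read 8.06, 7.52, 8.27, 8.18 and 7.82 on the knockouts and 7.02, 7.68, 7.16, 7.73 and 7.47 on the controls, a difference of 0.56 (SE 0.17, adjusted p = 0.196), and again only knockout 2 lay among the controls. Nop10 read 9.78, 9.15, 9.80, 9.72 and 9.52 on the knockouts and 8.96, 9.55, 9.16, 9.35 and 9.04 on the controls. Control 7 was above knockouts 2 and 5, and its difference was 0.38 (SE 0.15, adjusted p = 0.281). The pseudouridine synthase Dkc1 was at 0.73 (SE 0.23, adjusted p = 0.203).

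**Figure D2:**
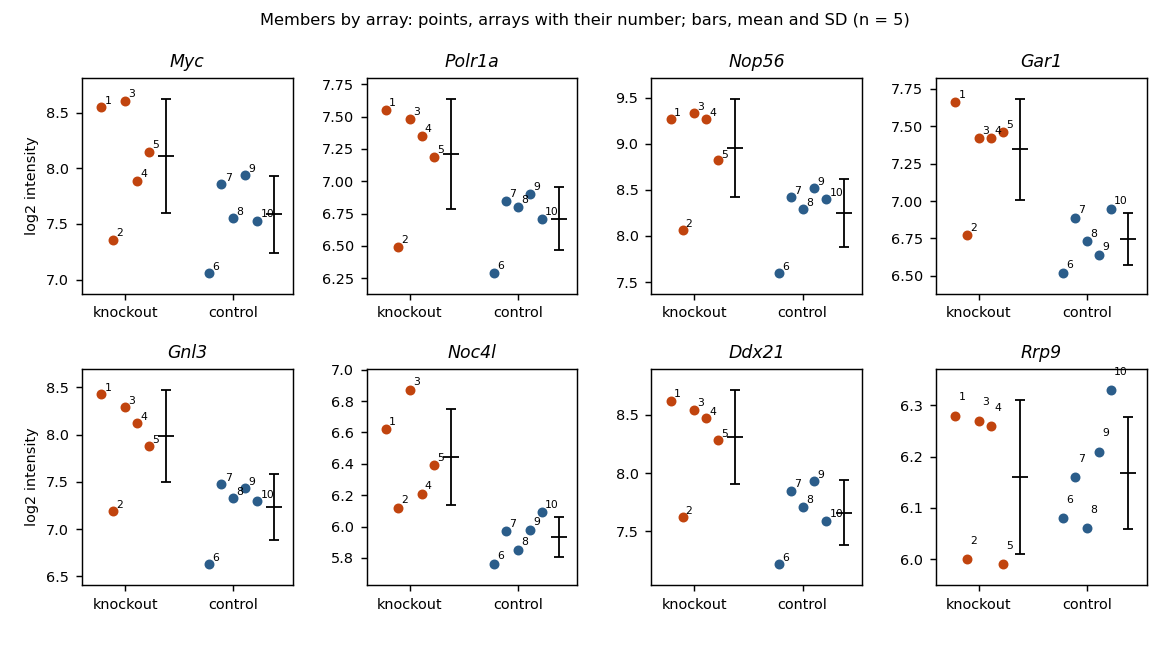
Log2 intensity of 8 members on each array (points, labelled with the array number) with group mean and SD (n = 5). Noc4l is the panel with no overlap between groups, and knockout 2 is the lowest knockout in every panel except Rrp9, where knockout 5 is at 5.99 and knockout 2 at 6.00.

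The nucleolar phosphoproteins and chaperones had a median difference of 0.64 over 5 genes. Gnl3, or nucleostemin, a GTPase known from stem and dividing cells, had the largest difference of all members. It read 8.43, 7.19, 8.29, 8.12 and 7.88 on the knockouts and 6.63, 7.48, 7.33, 7.44 and 7.30 on the controls, a difference of 0.75 (SE 0.23, adjusted p = 0.195). Mybbp1a, a nucleolar protein that binds Myb, read 8.97, 7.92, 8.93, 8.76 and 8.38 on the knockouts and 7.23, 8.24, 7.85, 8.17 and 7.90 on the controls, a difference of 0.71 (SE 0.23, adjusted p = 0.204). In both, the 4 knockouts other than knockout 2 were above every control. Nolc1, a chaperone of small nucleolar particles, read 7.90, 6.96, 7.95, 7.57 and 7.43 on the knockouts and 6.53, 7.20, 7.25, 7.15 and 7.06 on the controls. It had the same order of groups, with a difference of 0.52 (SE 0.19, adjusted p = 0.259). Nucleolin (Ncl), which binds the precursor, was at 0.64 (SE 0.21), and nucleophosmin (Npm1), a chaperone of late assembly steps, at 0.59 (SE 0.19).

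Factors that build the small subunit gave positive differences for all 10 measured members, from 0.38 to 0.55, and 10 of 10 had an unadjusted p under 0.05. Over all genes 46.8% were positive and 8.29% were higher at that threshold. Noc4l, which acts with Nop14, read 6.62, 6.12, 6.87, 6.21 and 6.39 on the knockouts and 5.76, 5.97, 5.85, 5.98 and 6.09 on the controls. The lowest knockout was at 6.12 and the highest control at 6.09, and the difference was 0.51 (SE 0.14, adjusted p = 0.158). Nop14 read 7.47, 6.85, 7.47, 7.22 and 7.22 on the knockouts and 6.27, 6.77, 6.98, 6.75 and 6.70 on the controls, a difference of 0.55 (SE 0.15, adjusted p = 0.158). In Nop14, control 8 was above knockout 2. Utp20, a large scaffold protein, had the largest p-value of these 10. It read 7.59, 6.37, 7.81, 7.41 and 7.25 on the knockouts and 6.35, 6.96, 6.65, 6.98 and 6.84 on the controls, so that knockout 2 was close to control 6. Its difference was 0.53 (SE 0.23, adjusted p = 0.341). Heatr1 and Wdr43, which join transcription to early processing, were at 0.53 and 0.54. The export and late maturation factors Ltv1, Rrp12 and Bysl were at 0.46, 0.38 and 0.40, the cyclase-like Rcl1 at 0.45 and the RNA acetyltransferase Nat10 at 0.45.

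Factors that build the large subunit gave positive differences for 8 of 8 members, and 7 of 8 had an unadjusted p under 0.05, against 46.8% and 8.29% of all genes. The RNA helicase Ddx21 read 8.62, 7.62, 8.54, 8.47 and 8.28 on the knockouts and 7.22, 7.85, 7.71, 7.93 and 7.59 on the controls, a difference of 0.65 (SE 0.19, adjusted p = 0.186). Pes1 read 8.45, 7.90, 8.54, 8.39 and 8.19 on the knockouts and 7.51, 8.13, 7.77, 7.93 and 7.81 on the controls, a difference of 0.46 (SE 0.14, adjusted p = 0.193). In both, knockout 2 lay among the controls and the others above them. Bop1 and Wdr12, which form a complex with Pes1, were at 0.39 (SE 0.17) and 0.55 (SE 0.18). Rrs1, which with Rpf2 helps bring the smallest ribosomal RNA into that subunit, read 6.62, 6.06, 6.47, 6.16 and 6.22 on the knockouts and 5.94, 6.07, 6.07, 6.27 and 6.03 on the controls. Control 9 was above 3 knockouts, and the difference was 0.23 with a 95% interval from -0.02 to 0.48. The RNA methyltransferase Nop2 was at 0.49, Nop16 at 0.46 and Noc2l at 0.54.

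**Figure D3:**
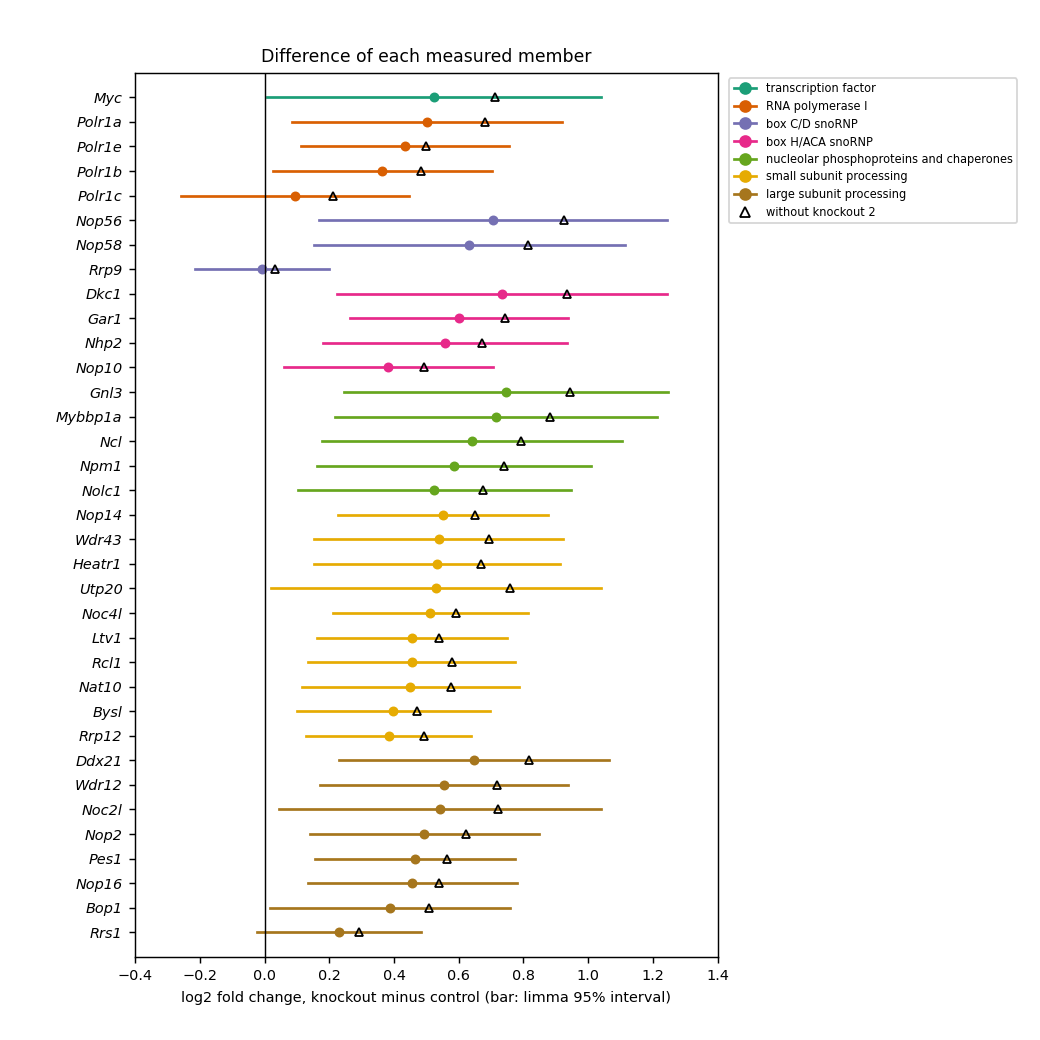
Log2 fold change, knockout minus control, of the 35 measured members (points) with limma 95% intervals (bars), coloured by role; open triangles give the difference without knockout 2. Intervals of 32 members lie above 0, and those of Polr1c, Rrp9 and Rrs1 include it.

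A gene can be read by several probe sets, and 4 members had more than 1. For Npm1 the other probe set gave 0.65, for Rrs1 0.31 and for Ddx21 0.31, all in the direction of the one used. Nop56 disagreed. Its probe set of highest mean gave 0.71, another 0.16 (SE 0.25) and the last -0.49 (SE 0.22). That last probe set read 8.69 on control 6, above all other arrays, where the one used read its lowest value.

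Other genes of the pathway were taken from lists, with the members left out. These lists too were chosen with earlier results of these data known, so their counts are no separate support for a difference. Of 46 further small subunit factors 45 had positive differences and 29 an unadjusted p under 0.05, with a median of 0.30, against 46.8% and 8.29% of all genes, and by limma 0 of the 46 passed. Of 51 further large subunit factors these numbers were 49 and 29, again with a median of 0.30 and 0 passing. The GTPase Gtpbp4 (0.74, SE 0.14, adjusted p = 0.111) and Rpf2 (0.78, SE 0.18) had the smallest p-values on the large subunit side, and Wdr75 (0.73, SE 0.16) and Imp4 (0.54, SE 0.12) on the small subunit side. The exosome, the complex that trims ribosomal RNA precursors, had 11 of 12 positive and 6 at an unadjusted p under 0.05 (median 0.28, 0 passing), and its subunit Exosc8 was at 0.75 (SE 0.22). Without knockout 2, 8 small subunit factors, 9 large subunit factors and 3 exosome genes passed, against 2.04% of all genes. Knockout 2 was the lowest knockout in the mean of each of these lists, and leaving it out raises their differences. These counts are therefore no separate support.

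Ribosomal proteins had a median of 0.24 over 60 genes, and 55 of 60 were positive. On the higher side 12 of 60 had an unadjusted p under 0.05, against 8.29% of all genes, and on the lower side 1, against 5.56%, and by limma 0 passed. The median was 0.36 without knockout 2 and 0.16 without control 6. Without knockout 2, 40 of 60 were higher at an unadjusted p under 0.05, against 9.65% of all genes. In that fit 2 of 60 passed, against 2.04% of all genes, a share near the background. Knockout 2 was the lowest knockout in the mean of this list too, so the counts without it are no separate support. Rpl3 (0.72, SE 0.19) and Rps27l (0.32, SE 0.08) had the smallest p-values. Ribosomal protein genes have many near-identical pseudogenes, so their probe sets may read more than 1 locus.

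Remaining polymerase I factors had a median of 0.07 over 8 genes. Among them the initiation factor Rrn3 was at 0.39 (SE 0.12) and Taf1d, of the promoter selectivity factor, at 0.32 (SE 0.10), and 0 of 8 passed. The Taf1d value is that of the brightest of its 11 probe sets, and the others are not shown. Myc targets outside the nucleolus had a median of 0.50, with 23 of 24 positive and 19 at an unadjusted p under 0.05, against 46.8% and 8.29% of all genes, and 0 passed. Without knockout 2, 6 of 24 passed, against 2.04% of all genes. As knockout 2 was also the lowest knockout in the mean of this list, that count is no separate support. The chaperonin subunit Cct3 was at 0.63 (SE 0.15), the pyrimidine synthesis enzyme Cad at 0.62 (SE 0.16), the transferrin receptor Tfrc at 0.76 (SE 0.20) and ornithine decarboxylase Odc1 at 0.21 (SE 0.14). Partners and relatives of Myc had a median of -0.05 over 17 genes. Max was at -0.15 (SE 0.12) and the helicase Ruvbl2, a cofactor of Myc, at 0.53 (SE 0.13), and 0 of 17 passed while 3 were higher and 1 lower at an unadjusted p under 0.05, against 8.29% and 5.56% of all genes. Without knockout 2, 1 of the 17 passed, against 2.04% of all genes. Genes tied to nucleolar stress had a median of 0.02 over 9 genes, and 0 of 9 passed. At an unadjusted p under 0.05, 2 were higher and 0 lower, against 8.29% and 5.56% of all genes. The 2 were Tcof1 at 0.45 (SE 0.21) and Rpl11 at 0.22 (SE 0.09). Mdm2, the ubiquitin ligase that free ribosomal proteins bind, was at -0.10 (SE 0.13), and the p53 target Cdkn1a at -0.19 (SE 0.11).

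**Figure D4:**
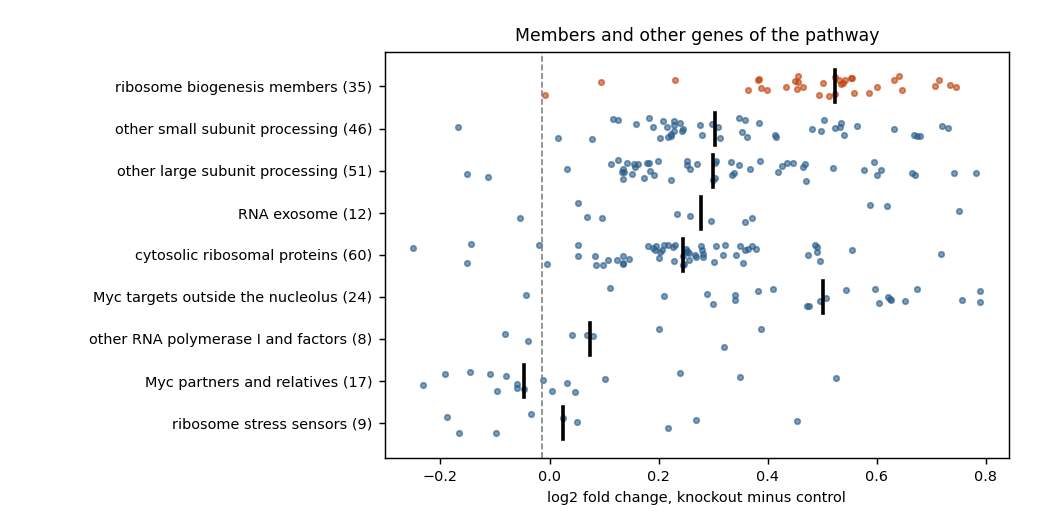
Log2 fold change, knockout minus control, of each gene (points) in the members and in 8 further lists, with the number of measured genes in brackets, list medians (black bars) and the median of all genes (dashed line, -0.01). Medians run from 0.52 for the members and 0.50 for Myc targets outside the nucleolus to -0.05 for partners of Myc.

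Genes of cell division had the same low arrays as the members. The cell cycle list had positive differences for 24 of 24 genes, with a median of 0.75, against 0.52 for the members. All 24 were higher at an unadjusted p under 0.05. Over all genes 46.8% were positive and 8.29% higher at that threshold. Groups did not overlap for 7 of the 24, against 1 of 35 members and 1.64% of all genes, and by limma 0 of 24 passed. This list, like the others, was chosen with earlier results of these data known. The centred mean of the list was 0.63, -0.26, 0.64, 0.61 and 0.26 on the knockouts and -0.93, -0.20, -0.35, -0.22 and -0.18 on the controls. As for the members, knockout 2 was the lowest knockout and control 6 the lowest control. When the cell cycle mean of each array was added to the limma model, a setting chosen after the data were seen, the median difference of the 35 members was -0.07, with 8 of 35 positive and a range from -0.41 to 0.18. In that fit 0 members were higher at an unadjusted p under 0.05 and 2 were lower, against 4.55% and 3.96% of all genes. By limma 0 members passed, against 0.00451% of all genes. The cell cycle mean itself differed between the groups by 0.75, so that its part and that of the genotype cannot be told apart in this fit.

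Markers of crypt and villus cells were set beside the members in the same way. Crypt stem cell markers averaged 0.26, -0.27, 0.31, 0.30 and 0.16 on the knockouts and -0.66, 0.23, -0.18, 0.02 and -0.17 on the controls, and villus tip markers -0.31, 0.21, -0.23, -0.12 and -0.02 on the knockouts and 0.39, -0.11, 0.06, 0.13 and 0.02 on the controls. Knockout 2 and control 6 were thus the highest arrays of their groups in villus tip markers and the lowest in crypt markers. The mean level of 15 enterocyte markers lay between 12.32 and 12.61 on the knockouts and between 12.40 and 12.62 on the controls. Paneth markers had mean levels of 9.28 to 11.86 on the knockouts and 9.21 to 11.40 on the controls. With the Paneth mean in the model, the members' median difference was 0.39, 32 of 35 were higher at an unadjusted p under 0.05, against 9.29% of all genes, and 0 were lower, against 6.14%. In that fit 1 of 35 passed (Gnl3), against 0.816% of all genes on the higher side and 1.05% in either direction. Without knockout 2 and control 6, the median was 0.56 and 14 of 35 passed, against 1.3% on the higher side and 1.47% in either direction. At an unadjusted p under 0.05 there were then 32 of 35 higher, against 8.53%, and 0 lower, against 5.14%. Both arrays left out were the lowest of their groups for most members, so leaving them out narrows the spread of these genes. The counts in this fit are therefore no separate support for a difference. No fit held the mean of the crypt stem cell markers, and the part of crypt cell number in these differences was not tested.

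**Figure D5:**
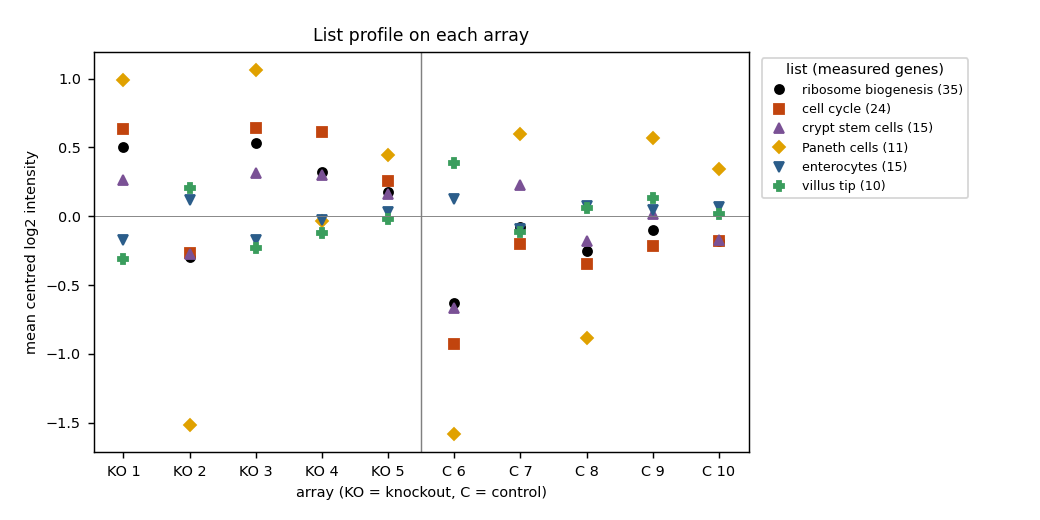
Mean centred log2 intensity of the 35 members and of 5 marker lists on each array. The members (black circles) and cell cycle genes (squares) are lowest on knockout 2 and control 6 within their groups, where villus tip markers (plus signs) are highest.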

How the data were processed

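The deposited values are linear intensities that the authors obtained by RMA, and the submitters' processing notes name Expression Console 1.4.1.46. RMA subtracts background, gives arrays one distribution and summarises the probes of a set. They ran from 1.88 to 15500.2, and 100% of their log2 values fell within 0.001 of a step of 0.01. The genome build was not given in the sources used here. Log2 of the deposited intensities was analysed. Of 34472 probe sets, 23521 had 1 gene symbol, 1814 several and 9137 none; the first kind gave 22180 genes, 1 probe set each (highest mean). No intensity filter was applied.

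Groups came from the sample titles. The test was limma's moderated, two-sided one (lmFit, then eBayes; limma 3.58.1, R 4.3.3) on all 10 arrays. P-values were adjusted by Benjamini-Hochberg across the 22180 genes, and a gene passed at an adjusted p under 0.05. SE and 95% intervals come from that fit. The code was tested on simulated data. For arrays, their number (5 per group) limits the precision. The members and lists were chosen with earlier results of these data known. Of 260 entries in 8 pathway lists, 227 were measured. Values on each array are given for Myc and, in each role group, for the 2 smallest p-values and the largest; from each pathway list, genes came from the 4 smallest p-values, plus Mdm2, Cdkn1a, Max and Odc1. Trp53 was not analysed here. Promoter windows come from RefSeq (GRCm38.p6). Alternatives covered each array left out, scaling, filters, probe sets, variance model, pseudocount and marker covariates.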

Additional observations from a re-analysis of the deposited data

Results flagged for a closer look

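Single arrays stood far from the other 4 of their group in 8 of 70 member groups examined, judged by a gap of more than 0.71 of the whole range; chance gives about 1 in 20. Control 6 was the far array in 5 of them. It read 7.60 for Nop56 (others 8.29 to 8.52), 5.98 for Dkc1 (others 6.61 to 6.82), 6.53 for Nolc1 (others 7.06 to 7.25), 6.63 for Gnl3 (others 7.30 to 7.48) and 6.60 for Heatr1 (others 7.03 to 7.16). Knockout 2 was the far array in the other 3, at 6.77 for Gar1 (others 7.42 to 7.66), 8.87 for Npm1 (others 9.57 to 9.73) and 5.75 for Wdr12 (others 6.43 to 6.64). Members share their arrays, so these are not 8 separate events.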

How the results depend on the processing

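No paired analysis was made because the labels give no pairing of samples. With 1 array left out, members passing ran from 0 to 17 and members without overlap from 1 to 28. The member median ran from 0.42 to 0.67, and all genes passing from 2 to 452. The upper counts came without knockout 2, where 5.67% of all genes did not overlap, with higher knockouts. In the other fits that share was 1.81% to 2.79% of all genes, with 1 to 2 members. Over these fits the difference of Polr1c ran from -0.025 to 0.21 and that of Rrp9 from -0.038 to 0.0345, and passing genes from 0 to 8 in other small subunit processing, 0 to 9 in other large subunit processing, 0 to 3 in the exosome, 0 to 2 in ribosomal proteins, 0 to 1 in Myc partners (median -0.0775 to -0.0205) and 0 to 6 in Myc targets. Median centring and a further quantile normalisation each gave 2 genes passing in all, a pseudocount of 16 gave 10, and 0 members passed; Rrp9 was at 0.018 with centring. With the Paneth covariate 233 genes passed, among them 1 member, 4 and 5 small and large subunit factors, 1 exosome gene, 1 ribosomal protein and 4 Myc targets. Without knockout 2 and control 6 these were 326, 14, 8, 8, 2, 1 and 8, with 1 Myc partner, 28 members did not overlap (6.25% of all genes) and Rrp9 was at 0.01. Without knockout 1, control 7 and control 9, the arrays high in smooth muscle, 2 genes passed and 6 of 35 members did not overlap (5.18% of all genes). With the cell cycle covariate 1 gene passed, 0 members were higher at an unadjusted p under 0.05, and medians were -0.0722 for the members, 0.0132 and -0.0196 for small and large subunit factors, -0.0749 for the exosome, -0.22 for ribosomal proteins, 0.0506 for Myc partners and -0.0225 for Myc targets; the cause was not tested. The filters at a mean log2 intensity of 5 or 6, the mean of probe sets, the variance trend, array weights and the smooth muscle covariate left 0 members passing.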

Other observations

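Small nucleolar RNA genes lie inside 7 of the 37 listed genes in the RefSeq gene table (18.9%), against 1.70% of all protein-coding genes. They are Nop56, Nop58, Dkc1, Ncl, Gnl3, Wdr43 and Tsr1. Such RNAs are cut from introns of their host and guide modification of ribosomal RNA. Of those inside measured members, 9 were measured, and 6 of 9 differences were positive, against 46.8% of all genes. Snord110 in Nop56 was at -0.03 (SE 0.13), Snord82 in Ncl at -0.11 (SE 0.10) and Snord70 in Nop58 at -0.002 (SE 0.12), against 0.71, 0.64 and 0.63 for the hosts. Snord53 in Wdr43 was at 0.37 (SE 0.16) and Snord19 in Gnl3 at 0.30 (SE 0.17). By limma 0 of 9 passed, and 1 of 9, Snord53, had an unadjusted p under 0.05, against 8.29% of all genes on the higher side; the difference between host and small RNA was not tested. These 9 were chosen by position, and the genes singled out after their values were seen. Snord91a is not among the 9, because it lies in Tsr1, whose own level was not analysed. It was at 0.58 (SE 0.19), with a limma unadjusted p of 0.0108 and an adjusted p of 0.211.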
